A study of Mus musculus with 18 samples.

Results

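Metallothioneins and zinc transporters were followed in the mouse retina after optic nerve crush. The members were the metallothionein genes Mt1, Mt2 and Mt3, the zinc exporters Slc30a1 and Slc30a3 and the zinc importer Slc39a14, and every probe of the array table annotated with 1 of these symbols was taken. That gave 10 probes for 6 genes, out of 46116 probes and 17658 genes. Retinas came from male DBA/2J (D2) and C57BL/6J (B6) mice of 60 to 90 days, 2 inbred strains, as control retinas and at 2 days and 5 days after the optic nerve was squeezed with forceps for 10 seconds behind the globe. The 6 groups were D2 control, D2 2 d, D2 5 d, B6 control, B6 2 d and B6 5 d, with 3 arrays in each. RNA for an array was pooled from 2 retinas, and no group carried an engineered allele or a drug treatment other than anaesthesia for surgery. Controls had no crush, and the labels do not say that they were sham operated, so anaesthesia and surgery moved together with crush in every comparison of injury.

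Metallothioneins are small cysteine-rich proteins that bind zinc and copper in the cytosol and take up reactive oxygen species. Mt1 and Mt2 are made in most tissues, and in the nervous system mainly in astrocytes and Müller glia, whereas Mt3 is found mainly in brain and is also known as growth inhibitory factor. Slc30a1 carries zinc out of the cell across the plasma membrane, Slc30a3 loads zinc into synaptic vesicles of neurons, and Slc39a14 brings zinc, iron and manganese into the cell. Free zinc activates the transcription factor Mtf1, which binds metal response elements in the promoters of Mt1, Mt2 and Slc30a1 in mouse. Mt1 and Mt2 also respond to glucocorticoids and to cytokines that signal through the gp130 receptor, and Slc39a14 is an acute-phase gene of mouse liver.

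The metal response element is the sequence feature shared by the 3 members known as Mtf1 targets, so its matches are shown. The core was searched as TGCACNC and TGCGCNC on both strands of RefSeq windows of 300 bases (build GRCm38.p6) that run from 250 bases before to 50 bases after the annotated gene start. Capitals mark the core, each is given with 10 flanking bases on either side, and sequences on the minus strand are written 5′ to 3′ on that strand. Mt1 held 3 matches, Mt2 held 4 and Slc30a1 held 2. Of these, 2 in Mt1, 1 in Mt2 and 1 in Slc30a1 reached past the annotated gene start.
Mt1, chr8:94179056-94179082, plus strand: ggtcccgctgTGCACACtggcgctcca
Mt1, chr8:94179081-94179107, plus strand: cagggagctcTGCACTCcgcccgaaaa
Mt1, chr8:94179099-94179125, plus strand: gcccgaaaagTGCGCTCggctctgcca
Mt2, chr8:94172385-94172411, plus strand: gcatcgcctcTGCACCCggcccctcgg
Mt2, chr8:94172480-94172506, plus strand: gcagacccttTGCGCTCagctcctttg
Mt2, chr8:94172558-94172584, minus strand: ggacagagccTGCACACgccctccccc
Mt2, chr8:94172612-94172638, minus strand: cccctgggccTGCGCACgacccgaatt
Slc30a1, chr1:191906728-191906754, minus strand: aactttgcttTGCACTCggaacccccg
Slc30a1, chr1:191906801-191906827, minus strand: ccgcggcgacTGCGCTCggcccggagg
The Mt3 window held 1 match, and the windows of Slc30a3 held 1 and 0 matches. For Slc39a14 no window was available. Of 32841 such windows, 25.7% held at least 1 match, 7.12% at least 2, 1.97% at least 3 and 0.518% at least 4. A match is only a match of letters, and binding was not measured here.

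Levels are given in 2 ways. Signal is the deposited intensity of a probe, not normalized. The scaled level sets each array's log2 intensities to a mean of 8 units and an SD of 2 units, as the authors did. A step of 1 unit was 0.514 to 0.660 on the log2 scale over the arrays, with a median of 0.558, which is a 1.47-fold difference in signal. Arrays had a median signal between 131.5 and 210.4, and their 95th percentile of signal was 8.38 to 15.4 times the 5th. Levels describe RNA of the whole retina, in which a change in the number of cells of a type and in the RNA per cell cannot be told apart.

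Some arrays stood apart from their labels. At 183 probes that differed by more than 2 units between the strains' controls with no overlap, the array labelled D2 2 d replicate 1 lay at 0.0731 and the array labelled B6 2 d replicate 3 at 0.891, on a scale where B6 controls have a mean of 0 and D2 controls of 1. The other D2 arrays lay between 0.889 and 1.01 and the other B6 arrays between -0.0285 and 0.0948, so each of these arrays at 2 days sat near the other strain. The array labelled B6 control replicate 1 had an Xist level of 11.3 units and an Eif2s3y level of 7.02 units, whereas the other 17 arrays had 6.89 to 7.55 units of Xist and 12.3 to 14.0 units of Eif2s3y, against its male label. The mean of 5 rod genes was 18.4 to 21.0 units on every array and that of 8 Müller glia genes was 12.6 to 13.3 units. Some marker lists differed with the groups compared. In B6 the rod mean was 18.4 to 19.9 units at 5 days against 19.995 to 20.233 units in controls, without overlap, and in D2 it was 19.0 to 20.8 against 20.3 to 20.7 units. The mean of 8 ganglion cell genes was 10.2 to 10.3 units in D2 5 d against 11.1 units on each D2 control, and 9.71 to 10.2 units in B6 5 d against 10.9 to 11.2 units in B6 controls. That of 7 amacrine cell genes was 13.6 to 14.1 units in D2 5 d against 13.8 to 14.0 units in controls, and 13.1 to 13.6 units in B6 5 d against 14.0 to 14.1 units in controls. The mean of 8 lens genes was 7.40 to 9.43 units in D2 5 d against 7.03 to 7.61 units in D2 controls, and 7.08 to 8.86 units in B6 5 d against 9.25, 10.9 and 15.7 units in B6 controls, so that it was lower in B6 5 d and in D2 controls than in B6 controls without overlap. In each of these comparisons limma called 0 of the 8 lens genes. At an unadjusted limma p under 0.05, 8 and 7 of them were lower, beside 19.6% and 6.93% of all probes in either direction. SAM, a permutation method, called 0 of the 8 in B6 5 d and 4 between the controls, beside 3.74% and 1.51% of all probes. As a mean of both strains at 5 days limma called 4.81% of all probes. There 2 of the 8 ganglion cell genes and 2 of the 7 amacrine cell genes fell, and 0 of the 5 rod genes were called. At 2 days the D2 lens mean was 8.08 to 11.9 units, above controls without overlap. In B6 it overlapped, at 7.29 to 11.6 units. The ganglion cell mean was 10.4 to 10.9 units in D2 2 d and 10.57 to 10.63 units in B6 2 d. Both lay below controls without overlap. Limma called 0 of these genes. At its unadjusted p under 0.05, 3 lens genes were higher and 0 lower in D2 2 d (6.39% of all probes). In B6 2 d 0 and 1 were (7.47%). Ganglion cell genes were lower only, 1 in D2 2 d and 4 in B6 2 d. The part of these cells in any of the differences was not tested.

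None of the 10 probes was called in any of 9 comparisons by limma, a linear model with moderated variance, at an adjusted p under 0.03. Of all 46116 probes, limma called 0.0% for D2 2 d against control, 0.0672% for D2 5 d, 0.0195% for B6 2 d, 1.36% for B6 5 d and 0.00434% for D2 control against B6 control. With crush set against control as a mean of both strains it called 0.18% at 2 days and 4.81% at 5 days, and for the difference between the strains' changes 0.0% at 2 days and 0.0% at 5 days. The share called among all probes was therefore small too, and 0 of 10 lies near it in every comparison. In B6 at 2 days same-numbered arrays deviated together and were taken as pairs, although the labels do not pair them. A fit with the replicate number as a block called 14 probes there in all, against 9 without it, and again no member. The array labelled B6 2 d replicate 3, taken in such a pair, lay near the other strain.

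At an unadjusted p under 0.05 limma, the same moderated test, gave 1 of 10 member probes for D2 2 d against a share of 6.39% of all probes, 1 for D2 5 d against 11.3%, 1 for B6 2 d against 7.47% and 2 for B6 5 d against 19.6%. It gave 2 for D2 control against B6 control, where the share over all probes was 6.93%. For the means of both strains it gave 1 at 2 days against 9.6% and 3 at 5 days against 23.7%, and for the differences between strains 0 against 4.14% at 2 days and 0 against 4.23% at 5 days. SAM, a permutation method, called 1 member at a false discovery rate under 0.03, the weaker Slc30a1 probe in B6 5 d, where it called 3.74% of all probes. It called no member in D2 2 d, D2 5 d, B6 2 d or the controls, where it called 0.0108%, 0.449%, 0.293% and 1.51% of all probes.

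Mt1 was among the strongest signals of every array, between the 99.2 and the 99.9 percentile. Its signal in D2 retinas was 6112.5, 5780.4 and 8454.2 in controls, 6852.8, 5032.0 and 3950.8 at 2 days and 8933.5, 14978.3 and 6240.9 at 5 days. In B6 retinas it was 6682.5, 4801.0 and 7426.2 in controls, 9065.5, 5727.9 and 5391.8 at 2 days and 8763.6, 6894.0 and 13200.3 at 5 days. Unscaled, the highest value of each strain was on an array at 5 days, and signals of crush and control retinas overlapped in both strains at both times. The 3 arrays with the highest Mt1 signal were among those with the widest range of signal, with 1 unit equal to 0.617 log2 on D2 5 d replicate 2, 0.660 on B6 5 d replicate 3 and 0.607 on B6 2 d replicate 1, and the part of this range in the Mt1 signal was not tested.

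On the scaled axis Mt1 averaged 17.27 ± 0.24, 16.44 ± 0.15 and 17.46 ± 0.56 units in D2 control, 2 d and 5 d retinas, and 16.83 ± 0.42, 16.50 ± 0.17 and 16.72 ± 0.16 units in B6 control, 2 d and 5 d retinas (SD, n = 3 arrays each). In D2 the 3 arrays at 2 days lay below the 3 controls without overlap, at 16.34 to 16.61 units against 17.02 to 17.50 units. The difference was -0.83 units (SE 0.25, 95% interval -1.35 to -0.30) with a limma p of 0.0043 and an adjusted p of 0.595. Replicate 1 of D2 2 d lay near the other strain, and with 1 array left out at a time the difference was -0.95 to -0.71 units. As a mean of both strains the difference at 2 days was -0.58 units (SE 0.17, limma adjusted p = 0.237), and with both arrays of doubtful strain left out it was -0.55 units (adjusted p = 0.533). The difference at 5 days was 0.20 units in D2 and -0.11 units in B6. Under quantile normalization it was larger in D2 and turned positive in B6, at 0.34 and 0.35 on the log2 scale (limma adjusted p = 0.60 and 0.448), and the mean of both strains was 0.35, a 1.27-fold difference (adjusted p = 0.197), against 0.04 units on the scaled axis.

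Ordered by mean, Mt1 was highest in D2 5 d, then in D2 control, B6 control, B6 5 d, B6 2 d and D2 2 d retinas. Neighbours in this order overlapped in their arrays throughout. The strain difference of the change at 2 days was -0.50 units (95% interval -1.24 to 0.24, limma adjusted p = 1.0), an interval that spans 0.

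Among the members Mt2 had the highest pooled SD between arrays of a group, at 0.88 units, which came mainly from D2 5 d. The SD of Mt2 was 1.90 units in that group and 0.24 to 0.63 units in the others. Its signal in D2 retinas was 357.1, 389.4 and 420.6 in controls, 429.9, 500.9 and 407.4 at 2 days and 792.2, 2280.3 and 407.1 at 5 days. In B6 retinas it was 454.9, 442.8 and 539.3 in controls, 462.6, 522.6 and 486.7 at 2 days and 611.0, 740.8 and 961.8 at 5 days. The D2 5 d array of replicate 2 was the highest of all 18, and replicate 3 of that group had a signal within the range of the D2 controls. In B6 all 3 arrays at 5 days had higher signals than the 3 controls, but on the scaled axis they overlapped, at 10.22 to 11.20 units against 9.41 to 10.39 units in controls.

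At 5 days the scaled Mt2 level in D2 was 11.44 ± 1.90 units against 9.80 ± 0.24 units in controls (SD, n = 3 each), with arrays at 10.04 to 13.60 units against 9.55 to 10.04 units that met without overlapping. The difference was 1.64 units (SE 0.65, 95% interval 0.26 to 3.02), with a limma p of 0.0232 and an adjusted p of 0.333. Without replicate 2 of D2 5 d it was 0.56 units (limma adjusted p = 0.745), so that 1 array carried most of it. In B6 the difference was 0.78 units (SE 0.65, limma adjusted p = 0.54), and as a mean of both strains it was 1.21 units (SE 0.46, limma adjusted p = 0.125), or 0.67 units without that array (adjusted p = 0.15). The change at 5 days in D2 minus that in B6 was 0.86 units (95% interval -1.10 to 2.81, limma adjusted p = 0.999), and it was -0.22 units without that array.

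At 2 days Mt2 differed from controls by 0.22 units in D2 (95% interval -1.16 to 1.61) and by -0.03 units in B6 (95% interval -1.41 to 1.36). Controls of the strains differed by -0.16 units, D2 minus B6 (95% interval -1.54 to 1.23). By mean level the order ran D2 5 d, B6 5 d, D2 2 d, B6 control, B6 2 d and D2 control. Neighbours overlapped throughout, so the order rests on the means alone.

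**Figure D1:**
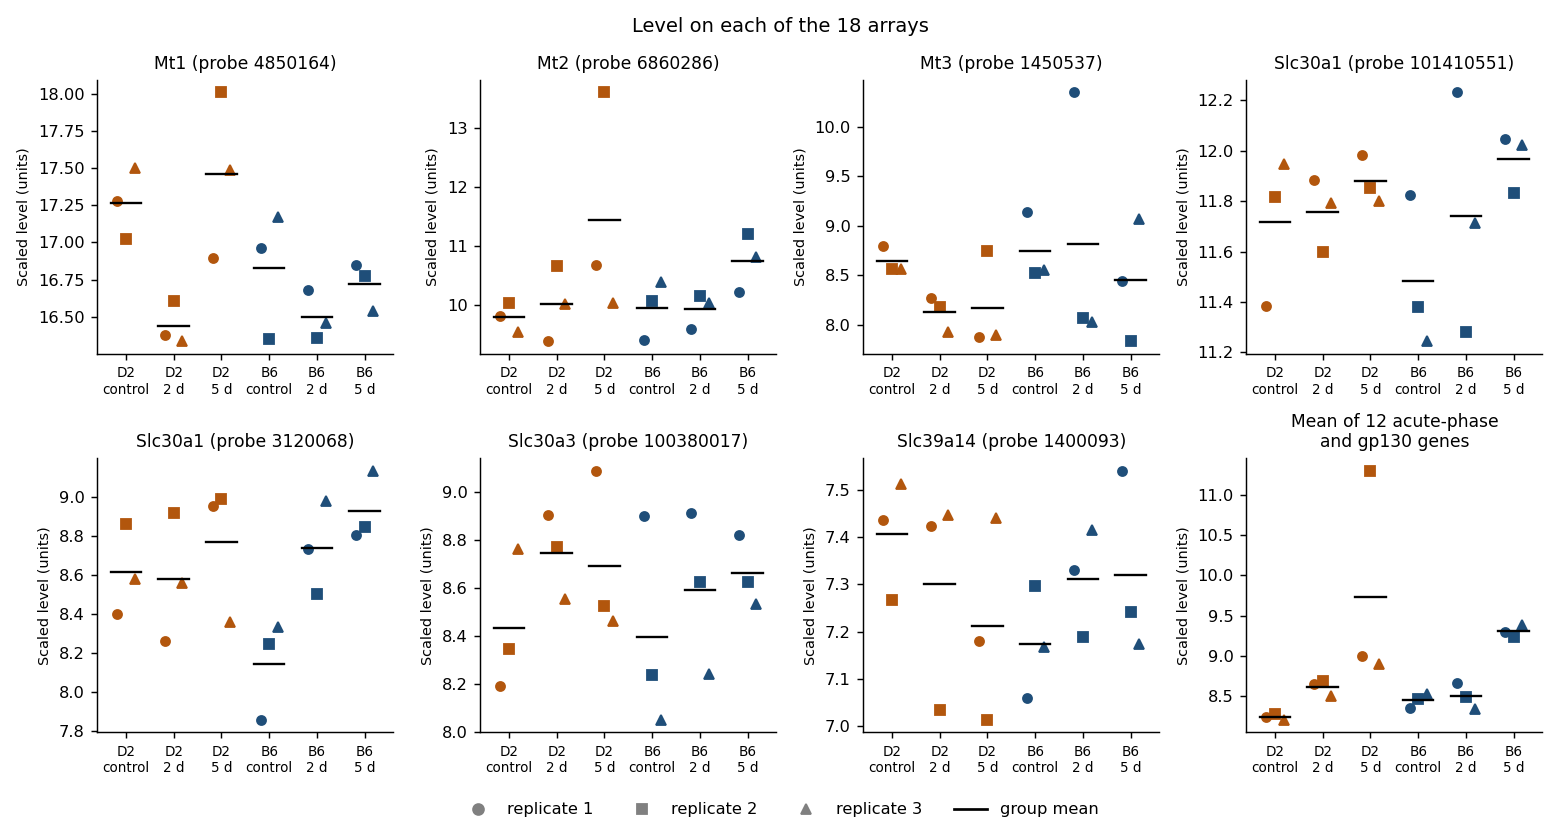
Scaled level (units, vertical axes) on each of the 18 arrays, by group, for 7 member probes and for the mean of 12 acute-phase and gp130 genes; each symbol is 1 array and the line is the group mean. D2 5 d replicate 2 was the highest array for Mt2, at 13.60 units, and for the 12 genes, at 11.3 units.

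The D2 5 d array with the most Mt2 also stood apart at genes of acute response, a list of 12 genes of cytokine signalling and acute-phase proteins. Their mean level was 11.3 units on that array and 8.90 and 8.99 units on the other D2 5 d arrays, against 8.20 to 8.27 units in D2 controls. In B6 it was 9.23 to 9.39 units at 5 days against 8.36 to 8.52 units in controls. The mean of 7 genes of reactive glia was 11.8 units on the same D2 array and 9.46 and 9.55 units on the other arrays of that group, against 8.25 to 8.39 units in D2 controls, and that of 6 microglia and macrophage genes was 8.31 units on it and 7.22 and 7.29 units on the others, against 6.89 to 7.15 units in D2 controls. In B6 the reactive glia mean was 9.46 to 9.96 units at 5 days against 8.26 to 8.54 units in controls, and the microglia and macrophage mean was 7.67 to 8.27 units against 7.08 to 7.30 units. Serpina3n, Lcn2 and Cp belong to both the reactive glia list and the acute-response list, so the means of these lists are not independent. On D2 5 d replicate 2 the Müller glia mean was 12.57 units, and on the other arrays of its group 12.69 and 13.04 units. D2 controls had 12.83 to 13.05 units. The rod mean was 18.97 units on that array and 19.89 and 20.8 units on the others, against 20.3 to 20.7 units in controls. The part of these cells and responses in the Mt2 value was not tested.

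As a mean of both strains at 5 days, 5 of the 12 acute-response genes rose, none fell and 7 did not pass the limma test at an adjusted p under 0.03, which 4.81% of all probes passed. Stat3, the transcription factor downstream of gp130, rose by 2.43 units (SE 0.33, limma adjusted p = 0.000988), and Osmr, the receptor of oncostatin M, rose by 1.95 units (SE 0.27, adjusted p = 0.0011). A second Stat3 probe rose by 1.66 units (limma adjusted p = 0.00387). The other Osmr probes, of lower signal, differed by -0.147 and -0.0859 units (limma adjusted p = 0.465 and 0.617). Serpina3n, a protease inhibitor of reactive astrocytes, rose by 2.77 units (SE 0.47, adjusted p = 0.00338). A2m, a protease-trapping plasma protein, and Socs3, the feedback inhibitor of Stat3 signalling, rose by 1.57 and 1.85 units (adjusted p = 0.017 and 0.0294). In B6 5 d alone Stat3 and Osmr rose, by 2.29 and 2.13 units (limma adjusted p = 0.0219 and 0.012), and in D2 5 d alone no gene of the list was called, where an unadjusted p under 0.05 was reached by 8 of 12 upward and 0 downward, beside 11.3% of all probes in either direction. At that p 4 were higher and 1 lower in B6 5 d, beside 19.6%, and 7 were higher and 1 lower for the mean of both strains, beside 23.7%. SAM called 4 of the list in B6 5 d, Socs3 and Serpina3n with these, and 0 in D2 5 d. The median difference of the list at 5 days was 1.37 units as a mean of both strains, beside -0.0562 units over all probes. The count of 5 fell to 3 when any of 7 arrays was left out, namely B6 5 d replicate 2 or 3, B6 control replicate 1 or 3, or any D2 control, and D2 5 d replicate 2 was not among them.

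**Figure D2:**
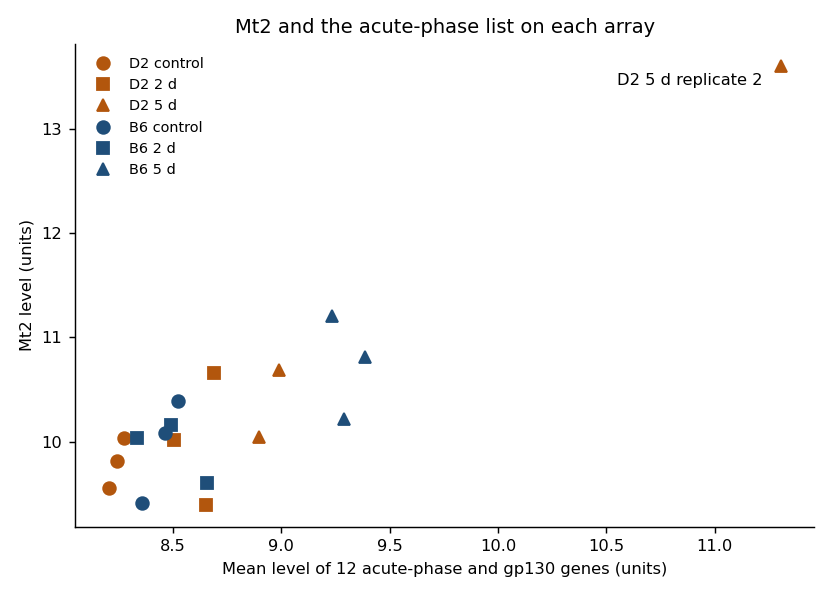
Mt2 level (units, vertical axis) against the mean level of 12 acute-phase and gp130 genes (units, horizontal axis) on each of the 18 arrays, with colour for strain and symbol for time. The array at the upper right is D2 5 d replicate 2, at 11.3 units of the list and 13.60 units of Mt2.

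The genes whose levels most resembled Mt2 over the 18 arrays, among 11695 genes in the brighter part of the array, were Gadd45b, a stress and growth arrest gene, with a Pearson r of 0.931, the synaptogyrin Syngr2 (0.913), the macrophage surface receptor Adgre1 (0.907), Socs3 (0.904) and the survival gene Bcl2a1a (0.901). These are descriptions over arrays that share a scale. Without D2 5 d replicate 2 the r values were 0.859, 0.799, 0.767, 0.614 and 0.704 in the same order. Gadd45b stood at 11.2 units on that array and at 6.81 to 9.58 units on the other 17, and Socs3 at 12.6 units and at 7.51 to 9.36 units.

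Mt1 and Mt2 lie side by side on chromosome 8, but their levels were only weakly related over the arrays, with an r of 0.458 over 18 arrays and of -0.14 without D2 5 d replicate 2. On that array Mt1 stood at 18.01 units, its highest level. The genes most like Mt1 were Tmem185b (0.824), Gmip (0.785), the monocyte receptor Cd14 (0.727), Pxylp1 (0.726) and Pigf (0.724), none of them among the genes most like Mt2.

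Mt3 had its highest level on a single array, and its B6 groups overlapped. Its signal in D2 retinas was 242.0, 220.6 and 289.2 in controls, 275.1, 191.6 and 191.6 at 2 days and 264.3, 285.4 and 185.2 at 5 days. In B6 retinas it was 413.0, 244.7 and 265.4 in controls, 633.7, 232.6 and 229.0 at 2 days and 299.2, 192.2 and 432.6 at 5 days. B6 2 d replicate 1 held the highest value, at 10.35 units on the scaled axis, while the other arrays of its group lay at 8.02 and 8.06 units.

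The Mt3 difference from control was -0.52 units in D2 at 2 days, where scaled levels of 7.92 to 8.27 units lay below controls of 8.56 to 8.80 units without overlap, but with an SE of 0.49 and a limma adjusted p of 0.894. Replicate 1 of D2 2 d lay near the other strain. With 1 array left out at a time the D2 difference at 2 days was -0.59 to -0.42 units. The Mt3 difference was -0.47 units in D2 at 5 days, 0.07 units in B6 at 2 days and -0.29 units in B6 at 5 days, each with an interval that spans 0. Without B6 2 d replicate 1 the B6 difference at 2 days was -0.70 units. By mean the order ran B6 2 d, B6 control, D2 control, B6 5 d, D2 5 d and D2 2 d, and neighbours in it overlapped. Itfg2, Naa60, Psme3, Commd10 and Git2 were the genes most like Mt3, with r from 0.948 to 0.961. These r values include B6 2 d replicate 1, the array with the highest Mt3 level, and were not computed without it.

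Slc30a1, the plasma membrane exporter of zinc, was measured by 2 probes, both with positive differences in B6. The levels of these probes had an r of 0.395 with each other over the 18 arrays and of -0.00575 within groups. Within groups the probes therefore did not vary together. With the probe of higher signal, numbered 101410551, the signal in D2 retinas was 648.2, 773.1 and 1038.2 in controls, 1153.7, 720.7 and 770.4 at 2 days and 1315.1, 1076.8 and 776.6 at 5 days. In B6 retinas it was 1073.7, 724.4 and 750.5 in controls, 1395.4, 806.1 and 911.1 at 2 days and 1271.6, 954.2 and 1670.3 at 5 days. The scaled levels at 5 days in B6 were 11.83 to 12.05 units against 11.24 to 11.83 units in controls, meeting without overlap. The difference was 0.48 units (SE 0.21, 95% interval 0.03 to 0.94), with a limma p of 0.0373 and an adjusted p of 0.224.

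With the second probe, numbered 3120068, the B6 signal was 261.2, 220.2 and 243.4 in controls, 320.3, 275.2 and 327.6 at 2 days and 346.2, 288.8 and 446.1 at 5 days. All 6 crush arrays of B6 lay above all 3 controls with this probe, on the signal and on the scaled axis. The scaled level averaged 8.14 ± 0.25 units in B6 controls, 8.74 ± 0.24 units at 2 days and 8.93 ± 0.18 units at 5 days (SD, n = 3 each). The difference was 0.59 units at 2 days (SE 0.21, limma adjusted p = 0.495). It was 0.79 units at 5 days (SE 0.21, 95% interval 0.34 to 1.23), with a limma adjusted p of 0.0622 and an unadjusted p of 0.00199.

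This probe in B6 5 d came nearest to the threshold among all members and comparisons, and it is the value that SAM called. Without B6 control replicate 1, the array at odds with its male label, the difference was 0.64 units (limma adjusted p = 0.213), and under quantile normalization it was 0.30 on the log2 scale, a 1.23-fold difference (adjusted p = 0.192). At 2 days it was 0.47 units without the array labelled B6 2 d replicate 3 (limma adjusted p = 0.807). The difference at 5 days kept its sign in every alternative tried. Lens genes were higher in the B6 controls than in B6 5 d or D2 controls, as given above, and without B6 control replicate 3, the array with the most lens signal, the difference at 5 days was 0.88 units (limma adjusted p = 0.0894).

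In D2 the second Slc30a1 probe had signals of 207.8, 247.1 and 291.5 in controls, 274.6, 255.0 and 240.6 at 2 days and 402.9, 317.3 and 219.7 at 5 days. The groups overlapped, with differences of -0.03 units at 2 days (95% interval -0.48 to 0.42) and 0.15 units at 5 days (95% interval -0.29 to 0.60). The change in D2 minus that in B6 was -0.63 units at 5 days (SE 0.30, 95% interval -1.27 to 0.00245) and -0.63 units at 2 days (SE 0.30, 95% interval -1.26 to 0.00812), with limma p of 0.0508 and 0.0526 and adjusted p of 0.999 and 1.0. Without both arrays of doubtful strain the value at 2 days was -0.35 units (limma adjusted p = 0.974). The D2 controls were higher than the B6 controls with this probe, at 8.61 ± 0.23 against 8.14 ± 0.25 units (SD, n = 3 each) without overlap, a difference of 0.47 units (SE 0.21, limma adjusted p = 0.684). These differences share the control arrays and are not independent of each other. By mean the second probe ran B6 5 d, D2 5 d, B6 2 d, D2 control, D2 2 d and B6 control, and neighbours overlapped, as they did for the first probe, whose order ran B6 5 d, D2 5 d, D2 2 d, B6 2 d, D2 control and B6 control.

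As a mean of both strains at 5 days the second probe differed by 0.47 units (SE 0.15, limma adjusted p = 0.069) and the first by 0.32 units (SE 0.15, adjusted p = 0.205). Leaving out D2 5 d replicate 3 took the second probe to 0.57 units and past the threshold (adjusted p = 0.0297). Over the 18 arrays the second probe had an r of 0.539 with Mt2, and the first had an r of 0.667 with the first Slc30a3 probe.

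**Figure D3:**
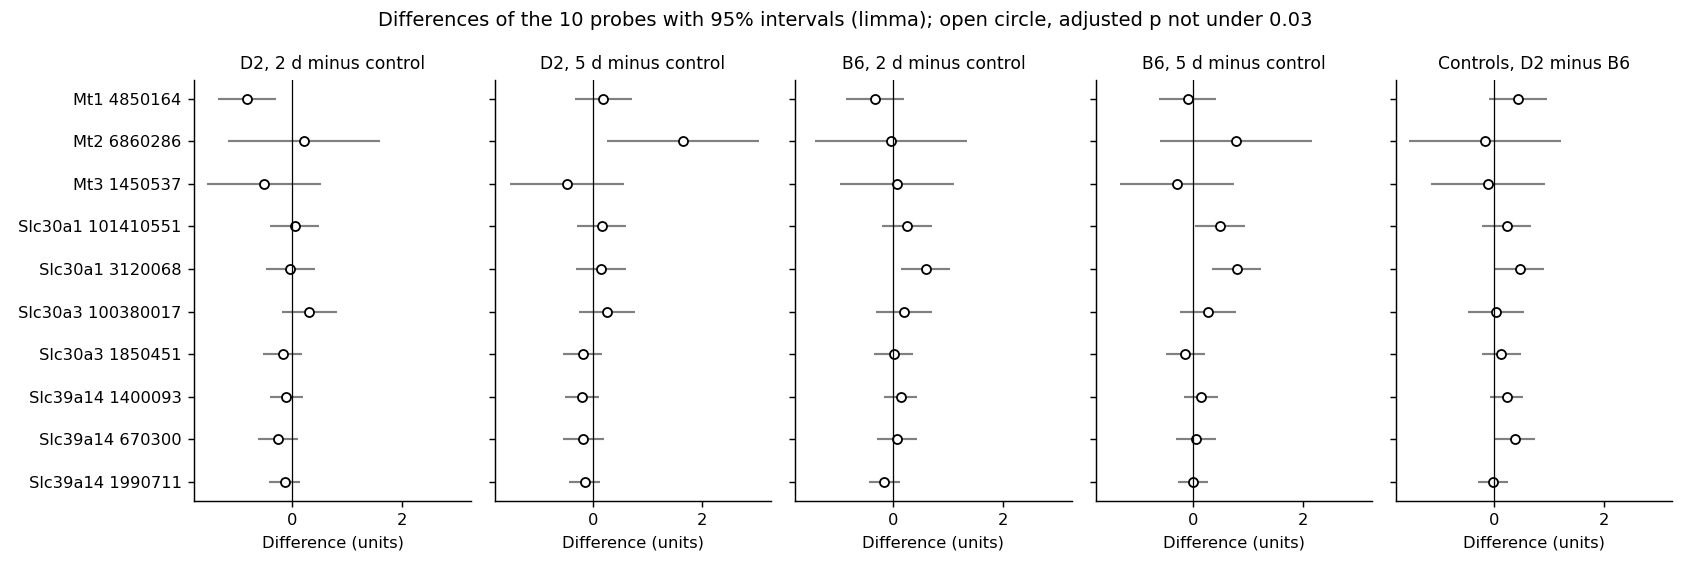
Differences in scaled level (units, horizontal axes) of the 10 member probes in 5 comparisons, with 95% intervals from limma as bars; an open circle means that the adjusted p was not under 0.03, as was the case for all. The second Slc30a1 probe (3120068) lay at 0.59 and 0.79 units in B6 at 2 and 5 days and Mt2 at 1.64 units in D2 at 5 days.

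The genes most like the first Slc30a1 probe were Phf20, Exosc2, Galnt15, Stk36 and Zbtb7a, with r from 0.885 to 0.909, and those most like the first Slc30a3 probe were Primpol, Dcaf5, Star, Pcyox1 and Cwf19l1, with r from 0.79 to 0.8. All 10 of these genes were measured by probes with 9-digit numbers, as were both members, although such probes made up 18.2% of the genes searched. None of the genes most like Mt1, Mt2 or Mt3 had such a probe, while 2 of the 5 most like Slc39a14, whose own probe has a shorter number, did. The spread of log2 signal on an array was 0.835 to 1.02 over the 22077 probes with 9-digit numbers and 1.15 to 1.49 over the other 24039, and the part of this grouping in the likeness was not tested.

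Slc30a3, the transporter that fills synaptic vesicles with zinc, did not pass the test in either strain. With its probe of higher signal, the signal in D2 retinas was 192.1, 202.4 and 312.3 in controls, 354.4, 240.8 and 240.5 at 2 days and 425.3, 260.2 and 228.0 at 5 days. In B6 retinas it was 378.6, 219.7 and 218.4 in controls, 346.0, 288.9 and 248.5 at 2 days and 348.3, 264.3 and 339.0 at 5 days. Crush and control arrays overlapped in all 4 comparisons, and the differences were 0.31 units in D2 at 2 days, 0.26 units in D2 at 5 days, 0.20 units in B6 at 2 days and 0.27 units in B6 at 5 days, with intervals from -0.31 at the lowest to 0.82 at the highest. By mean the order ran D2 2 d, D2 5 d, B6 5 d, B6 2 d, D2 control and B6 control, and neighbours overlapped. The other Slc30a3 probe lay between the 0.0987 and the 9.00 percentile of an array, with signals of 87.0 to 136.0, among the lowest of the table.

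Slc39a14, the importer, had signals close to or below the median probe of an array with all 3 of its probes. The first had signals of 122.7 to 208.2 over the 18 arrays and lay between the 38.3 and the 64.1 percentile, the second had 123.7 to 187.8 and the third 98.4 to 178.8. With the first probe the signals in D2 were 144.1, 133.6 and 194.9 in controls, 196.9, 122.7 and 161.4 at 2 days and 202.0, 136.3 and 156.8 at 5 days, and in B6 they were 196.6, 153.6 and 155.2 in controls, 177.8, 165.9 and 182.5 at 2 days and 208.2, 151.9 and 181.9 at 5 days. The groups overlapped in every comparison with crush. Its differences from control were -0.19 to 0.14 units, and no detection call was used here, so it is not known whether the transcript was above background. The second probe separated the controls, at 7.12 to 7.47 units in D2 against 6.61 to 6.98 units in B6, a difference of 0.38 units (SE 0.17, limma adjusted p = 0.697). By mean the first probe ran D2 control, B6 5 d, B6 2 d, D2 2 d, D2 5 d and B6 control, and neighbours overlapped. Zc4h2 had the highest r with the first probe (0.797), followed by Magee2, Olfr1270, Whrn and Snx2 at 0.656 to 0.676.

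Of 23 other genes of the zinc system, namely Mt4, Mtf1 and further exporters (Slc30a) and importers (Slc39a), 22 were measured. Limma called none of them at 2 days or within either strain, and as a mean of both strains at 5 days 1 rose, 1 fell and 20 did not pass, beside 4.81% of all probes called. At an unadjusted p under 0.05, 1 was higher and 2 lower in D2 2 d (6.39% of all probes in either direction), 2 higher and 3 lower in D2 5 d (11.3%), 2 higher and 0 lower in B6 2 d (7.47%), and 3 higher and 2 lower in B6 5 d (19.6%). For the mean of both strains 1 was higher and 0 lower at 2 days (9.6%), and 3 were higher and 5 lower at 5 days (23.7%). SAM called Slc39a1 in B6 2 d and in B6 5 d, and 0 of 22 in D2 2 d, D2 5 d and the controls. The median difference of the 22 genes as a mean of both strains at 5 days was -0.0652 units, beside -0.0562 units over all probes.

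Slc39a1, an importer of zinc at the plasma membrane, was the gene that rose. Its scaled level in D2 was 9.26, 8.74 and 9.44 units in controls, 9.52, 10.33 and 9.94 units at 2 days and 10.03, 11.70 and 9.98 units at 5 days. In B6 it was 9.08, 9.19 and 9.07 units in controls, 10.01, 9.75 and 9.98 units at 2 days and 10.53, 10.57 and 10.66 units at 5 days. All 12 crush arrays lay above all 6 controls of both strains, and within each strain the arrays at 5 days had the higher mean.

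As a mean of both strains Slc39a1 rose by 1.45 units at 5 days (SE 0.25, limma adjusted p = 0.00349). Without D2 5 d replicate 2 the rise was 1.16 units (adjusted p = 0.000832), and it stayed called under each alternative run. The single comparisons gave 1.42 units in D2 (SE 0.35, limma adjusted p = 0.107) and 1.47 units in B6 (adjusted p = 0.0389) at 5 days, and 0.79 units in D2 and 0.80 units in B6 at 2 days (adjusted p = 0.772 and 0.627).

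Slc39a4, the importer known for taking up dietary zinc in the gut, was the gene that fell, by 0.44 units as a mean of both strains at 5 days (SE 0.08, limma adjusted p = 0.0057). Its levels at 5 days were 7.48, 7.60 and 7.69 units in D2 against 7.98, 8.13 and 8.02 units in controls, and 7.54, 7.51 and 7.55 units in B6 against 8.12, 7.67 and 8.07 units in controls. The arrays did not overlap within either strain. A second probe of Slc39a4, of lower signal, differed by -0.11 units (limma adjusted p = 0.554).

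Mtf1, the zinc-sensing factor itself, did not pass in any comparison. Its highest probe differed by -0.49 units in D2 at 2 days (SE 0.21, limma adjusted p = 0.769), by -0.35 units in D2 at 5 days, by -0.05 units in B6 at 2 days and by -0.30 units in B6 at 5 days. The other Mtf1 probes, of lower signal, differed by -0.03 and -0.50 units in D2 at 2 days (limma adjusted p = 0.989 and 0.477). At 5 days in D2 they differed by -0.07 and -0.37 units (limma adjusted p = 0.915 and 0.201). Slc39a6, an importer singled out after its values were seen, differed by 0.78 units at 2 days and 0.83 units at 5 days in B6 (SE 0.24, limma adjusted p = 0.398 and 0.083) and by -0.32 and 0.06 units in D2. The change in D2 minus that in B6 was -1.10 units at 2 days (SE 0.34) with a limma p of 0.00594 and an adjusted p of 1.0. Both arrays near the other strain enter this value, and it is not given here without them. At an unadjusted limma p under 0.05, 0 of the 22 zinc system genes were higher and 1 lower in this contrast, beside 4.14% of all probes.

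**Figure D4:**
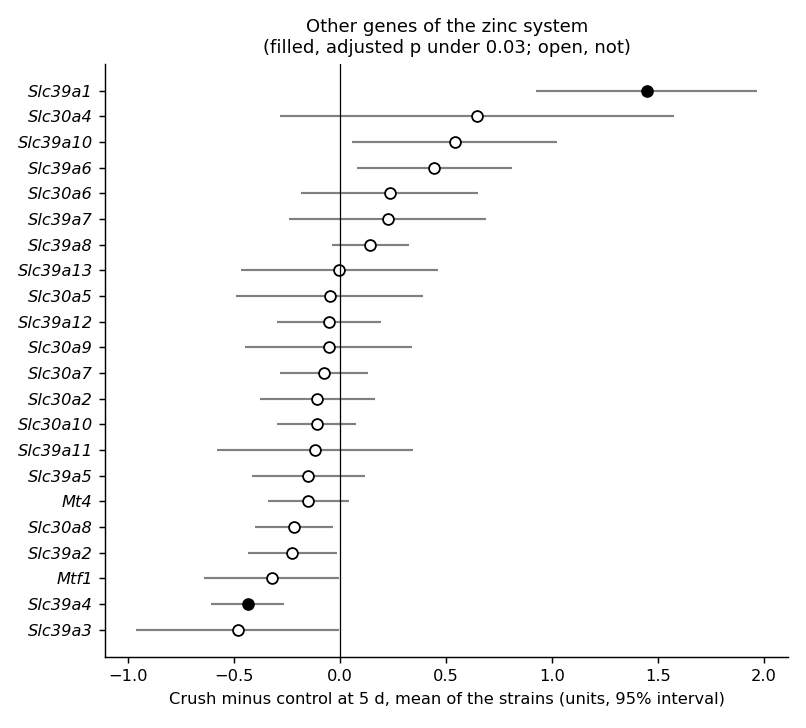
Crush minus control at 5 days, as a mean of both strains (units, horizontal axis, bars are 95% intervals from limma), for 22 other genes of the zinc system. Slc39a1 at 1.45 units and Slc39a4 at -0.44 units are filled, with an adjusted p under 0.03; the other 20 are open.

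Genes known to respond to glucocorticoids, a further class of Mt1 and Mt2 inducer, were measured by 10 of 10 list members. Limma called none at 2 days or within either strain, where 1 to 2 were higher and 1 to 3 lower at an unadjusted p under 0.05 except that none was higher in B6 2 d, beside 6.39% to 19.6% of all probes, and SAM called 1, Dusp1 in B6 5 d. As a mean of both strains at 5 days 2 rose and none fell by limma, beside 4.81% of all probes called, while at an unadjusted p under 0.05 these 2 were higher and 4 were lower, beside 23.7% of all probes. Cdkn1a, the cell cycle inhibitor p21, rose by 1.09 units (SE 0.23, limma adjusted p = 0.0102), and Nr3c1, the glucocorticoid receptor itself, rose by 0.84 units (SE 0.18, adjusted p = 0.0127). A second Cdkn1a probe, of lower signal, differed by 0.82 units (limma adjusted p = 0.0364) and did not pass. The other 8 genes, Fkbp5 and Tsc22d3 among them, did not pass, and the median of the list was -0.187 units beside -0.0562 units over all probes. Without D2 5 d replicate 2 or without B6 control replicate 1 the count was 1, and without D2 control replicate 1 it was 0.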

How the data were processed

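Retinal RNA of 18 samples was hybridised to Illumina Sentrix Mouse-6 arrays (3 BeadChips). The labels do not name the BeadChip of an array, so it could not be used as a block. The authors deposited intensities for 46116 probes, not normalized, and whether background was subtracted is not given in the sources used here. Their second deposited table holds a score: the authors took log2, standardised each array, multiplied the z-scores by 2 and added 8. The same scaling was applied here to the intensities, and 99.74% of probes equalled the deposited scores within 0.02 units, with 121 that did not. Platform annotation gave 29534 probes 1 symbol, 11 several and 16571 none. Where a gene had several probes, each member probe was tested and the 1 with the highest mean log2 intensity stood for the gene in lists.

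A model with 1 mean per group was fitted to all 18 arrays in limma 3.58.1 (R 4.3.3; 12 residual and 2.88 prior degrees of freedom), and p-values were adjusted by Benjamini-Hochberg over all 46116 probes, with the methods' threshold of 0.03. The methods' tool, SAM, was rewritten in Python 3.11.15 as a 2-class unpaired test over all label orders and served as an alternative. Both were tested on simulated data. The named genes were the 6 members, the called genes of 3 lists (zinc system with Mtf1, acute-phase and gp130, glucocorticoid) and the 5 genes most like each member by Pearson r. Members and lists were chosen with earlier results of these data known. P-values measure the spread between arrays, since the labels do not tie arrays to animals. Arrays with the same replicate number deviated together in B6 2 d and B6 control (correlation of deviations from the group means 0.527, 0.476 and 0.317 over the brighter 23058 probes), so the numbers were taken as pairs there by that rule. In the other comparisons at least 1 of the 3 correlations was 0.1 or lower. Alternatives were quantile normalization, normexp background correction (offset 50), the deposited scores, the brighter 23058 probes, a threshold of 0.05, a replicate block, an intensity trend, fits to only the groups in question, SAM, leaving out each array, leaving out the 2 arrays near the other strain, and the other probes of a gene. Scaling probes with 9-digit numbers separately was added after seeing the data, as were leaving arrays out of the list counts and of the correlations with Mt2. The number of arrays, 3 in a group, limits the precision.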

Additional observations from a re-analysis of the deposited data

How the results depend on the processing

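No member probe was called under any alternative run, with 2 exceptions, both of the second Slc30a1 probe: SAM called 1 member in B6 5 d, and leaving out D2 5 d replicate 3 gave 1 for the mean of both strains at 5 days, so that leaving out 1 array at a time gave 0 to 1. With the replicate number as a block 0 members were called in all 9 comparisons. The block moved the calls among all probes to 14 in B6 2 d, 100 in D2 5 d and 3 in D2 2 d, and for the mean at 5 days it called 5 acute-response, 2 zinc system and 3 glucocorticoid genes, against 5, 2 and 2 without it. Of the member differences, 606 values under other settings and 435 with 1 array left out kept their direction and side of the threshold, while 28 and 38 changed sign. The cause of the sign changes was not tested.

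Under quantile normalization without and with normexp (log2 scale), Mt1 became 0.35 and 0.35 in B6 5 d and -0.011 and -0.012 in the strain difference at 5 days, Mt3 became -0.039 and -0.076 in B6 2 d, Slc30a3 became -0.0079 and -0.0050 in B6 5 d, the second Slc30a1 probe became -0.019 and -0.025 in D2 5 d, and Slc39a14 became 0.0075 and 0.012 for the mean at 5 days. Leaving out both arrays near the other strain gave -0.020 and 0.13 units for the Slc30a1 probes in D2 2 d and -0.040 units for Slc39a14 as a mean at 2 days. Separate scaling of probe number classes gave -0.035 units in D2 2 d and -0.0067 units in D2 5 d for the first Slc30a1 probe. Other probes of the same gene gave -0.033 units for Slc30a1 in D2 2 d, and for Slc30a3 -0.18 units in D2 2 d, -0.18 units in D2 5 d, -0.15 units in B6 5 d, -0.082 units for the mean at 2 days and -0.16 units for that at 5 days. For Slc39a14 they gave -0.0094 units in controls, -0.16 units in B6 2 d, -0.0024 units in B6 5 d, and -0.093 and -0.15 units for the mean at 2 days.

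With 1 array left out at a time, Mt1 ranged from -0.34 to 0.065 units in B6 5 d, from -0.078 to 0.48 in D2 5 d and from -0.092 to 0.19 for the mean at 5 days. Mt2 ranged from -0.30 to 0.19 in B6 2 d, from -0.10 to 0.54 in D2 2 d, from -0.43 to 0.054 between controls, from -0.062 to 0.25 for the mean at 2 days, and in the strain difference from -0.068 to 0.57 at 2 days and from -0.22 to 1.56 at 5 days. Mt3 ranged from -0.70 to 0.47 in B6 2 d, from -0.60 to 0.016 in B6 5 d and from -0.21 to 0.10 between controls. The first Slc30a1 probe ranged from -0.12 to 0.16 in D2 2 d, from -0.0014 to 0.28 in D2 5 d and from -0.45 to 0.029 in the strain difference at 2 days, and the second from -0.20 to 0.13 in D2 2 d. Slc30a3 ranged from -0.14 to 0.29 between controls. Slc39a14 ranged from -0.18 to 0.029 in D2 2 d, from -0.020 to 0.084 for the mean at 2 days and from -0.082 to 0.025 for the mean at 5 days.

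Calls among all probes moved by over 1.5 times as follows. Between controls 2 became 695 with SAM, 456 without both arrays near the other strain, 322 with only those groups, 1 with either quantile setting and 0 with an intensity trend. In B6 2 d 9 became 135 with SAM, 14 with quantile normalization, 3 with a trend and 0 with only those groups. In B6 5 d 628 became 1723 with SAM and 395 with a trend. In D2 2 d 0 became 5 with SAM, 3 with normexp and 1 with quantile normalization. In D2 5 d 31 became 207 with SAM, 10 with a trend and 3 with only those groups. For the mean at 2 days 83 became 135 with separate scaling, 29 with only those groups, 23 without both arrays and 6 with a trend. Leaving out any 1 control array gave 0 calls between controls, and leaving out 1 array gave 0 to 23 calls in B6 2 d, 147 to 475 in B6 5 d, 6 to 69 in D2 5 d, 22 to 428 for the mean at 2 days and 1064 to 2607 for that at 5 days, beside 2216.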
